A study of Mus musculus with 4 samples.

Results

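Npnt-positive alveolar fibroblasts were taken from single-cell RNA profiles of mouse lung as the cell barcodes that met a fixed rule on unique molecular identifiers (UMIs, each counting 1 captured transcript). A barcode had to show 300 or more genes, with mitochondrial transcripts making up no more than 10% of its UMIs. It then needed at least 3 UMIs of Col1a2 and at least 2 of Npnt, no UMI of the endothelial gene Cdh5, at most 3 UMIs of the macrophage genes C1qa, C1qb and C1qc together, and at most 1 UMI of Lamp3, a gene of alveolar type 2 cells. The rule found 2788 members among 15793 barcodes, 17.7% of all. Members were thus chosen by the measured levels of these 7 genes, so their levels are description only.

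Alveolar fibroblasts lie in the walls of the air sacs, beside the type 1 and type 2 epithelial cells and the capillaries, and build the collagen and elastic fibres of those walls. Npnt encodes nephronectin, a basement membrane protein that binds the integrin made from Itga8. Alveolar fibroblasts are also known for the receptor Pdgfra, for retinoid and lipid storage, and for secreted factors that support the epithelium. LAIR1 is an inhibitory receptor of leukocytes whose ligands are collagens, the main product of fibroblasts.

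The study profiled lungs of 2 genotypes, WT and LAIR1KO, each without a tumor and bearing B16/F10, a transplantable mouse melanoma line. Each of the 4 combinations was 1 droplet library that pooled 3 mice, marked apart by hashtag antibodies. The labels give no strain, age, cell dose, route or time of tumor growth, and do not say whether LAIR1 was lost from all cells or from some. Since each group was 1 library, library and group cannot be told apart in any comparison, and p-values measure the spread between the 3 hashtagged mice of a library. The deposited tables held 25216301 to 28034709 UMIs per library.

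Lair1 itself gave 655 and 1347 UMIs in the WT libraries (normal, then tumor-bearing) and 6 and 3 UMIs in the LAIR1KO ones. In the members it was at or near 0 in all 4 libraries, at 0 to 2.36 CPM per mouse, where CPM is the gene's UMIs over all UMIs of the sum, scaled to 1000000. The Xist transcript of female cells stood at 0 CPM in the members of all 3 WT normal mice and at 1144 to 1383 CPM in those of the other 9 mice. The Y-linked Ddx3y stood at 258 to 279 CPM in WT normal members and at 0 in the others. The WT normal mice were therefore male by these transcripts and all others female, so genotype in normal lung and tumor in WT lung cannot be told apart from sex. Only genotype in tumor-bearing lung and tumor in LAIR1KO lung compared mice of 1 sex.

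Members numbered 663 of 3100 barcodes in WT normal lung (21.4%, 95% exact binomial interval 19.96% to 22.9%) and 845 of 4291 in WT tumor-bearing lung (19.7%, 18.5% to 20.9%). They numbered 296 of 3816 in LAIR1KO normal lung (7.76%, 6.93% to 8.65%) and 984 of 4586 in LAIR1KO tumor-bearing lung (21.5%, 20.3% to 22.7%). These intervals cover counting error only. The low share in LAIR1KO normal lung came with the Cdh5 condition of the rule. Barcodes that met both the Col1a2 and the Npnt condition numbered 785, 960, 871 and 1090 in the same order of libraries. Of these, 12.7%, 8.33%, 63.4% and 7.52% held a Cdh5 UMI and were set aside. In LAIR1KO normal lung that was 552 of 871 barcodes, with a median of 13.5 Cdh5 UMIs. Among barcodes set aside for Cdh5, 32.8% to 47.0% per library carried 2 hashtags, against 1.01% to 3.55% of the members. Without the Cdh5, C1q and Lamp3 conditions the library shares were 25.3%, 22.4%, 22.8% and 23.8%.

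Per mouse, over barcodes with 1 hashtag, members made up 19.97%, 11.9% and 19.4% in WT normal lung, 12.9%, 16.0% and 17.8% in WT tumor-bearing lung, 2.45%, 7.76% and 7.01% in LAIR1KO normal lung, and 11.4%, 9.22% and 19.1% in LAIR1KO tumor-bearing lung. The 3 LAIR1KO normal mice lay below the mice of every other group. The means were 17.1% ± 4.52, 15.5% ± 2.48, 5.74% ± 2.87 and 13.3% ± 5.21 (SD, n = 3 mice each). LAIR1KO normal minus WT normal was -11.3 percentage points and LAIR1KO tumor-bearing minus LAIR1KO normal was 7.52 points, each with p = 0.1 by a two-sided exact permutation test (0.2 after Benjamini-Hochberg adjustment over the 4 comparisons). With 3 mice against 3 no p below 0.1 is possible. Genotype in tumor-bearing lung differed by -2.27 points (exact permutation p = 0.5, adjusted 0.6) and tumor in WT lung by -1.55 points (exact permutation p = 0.6, adjusted 0.6), with overlapping mice in both.

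Both larger differences turned their sign when the 3 exclusions were left out. The means then stood at 20.02% ± 4.77, 17.9% ± 2.59, 23.5% ± 2.30 and 15.2% ± 5.77 (SD, n = 3). Genotype in normal lung became 3.43 points (exact permutation p = 0.4) and tumor in LAIR1KO lung became -8.25 points (exact permutation p = 0.2). Fewer cells of a type and less RNA per cell cannot be told apart in a barcode share either.

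**Figure D1:**
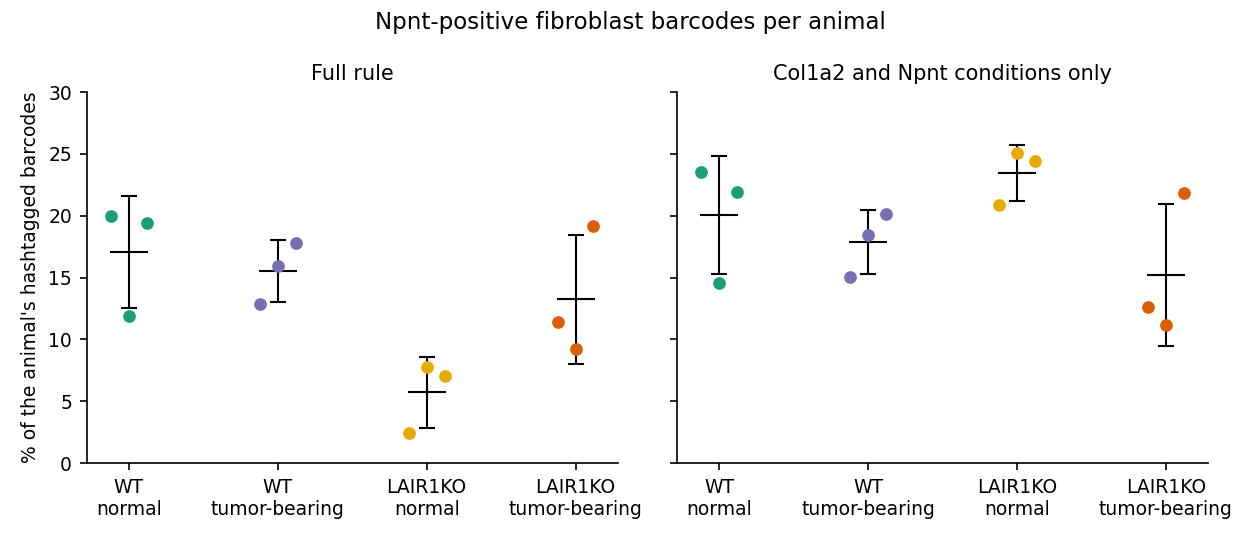
Percent of singly hashtagged barcodes per mouse (y axis) in the 4 groups (x axis), for the full rule (left) and for the Col1a2 and Npnt conditions alone (right). Points are mice and bars the mean ± SD of 3 mice. The LAIR1KO normal mean is lowest on the left, at 5.74%, and highest on the right, at 23.5%.

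Members carried little hashtag signal. No hashtag was called in 51.1% to 62.8% of members per library, against 16.2% to 24.9% of the other barcodes, and 1130 members with 1 hashtag entered the per-mouse sums. These sums held 118, 61 and 129 members in WT normal mice, 76, 144 and 141 in WT tumor-bearing, 16, 60 and 41 in LAIR1KO normal, and 96, 47 and 201 in LAIR1KO tumor-bearing mice. The median member held 9610, 7682, 8300 and 6392.5 UMIs in the 4 libraries. No barcode sequence was shared between libraries among the members, against 27 sequences in more than 1 library among all barcodes. At the edges of the rule, 46 members held exactly 2 Npnt UMIs and 43 barcodes just outside held 1. Their Inmt levels were 1882 and 1432 CPM, against 4267 CPM over all members. Members with exactly 3 Col1a2 UMIs numbered 154 and barcodes just outside with 2 numbered 151, with Inmt at 5764 and 5271 CPM. A further 128 barcodes missed the rule by a single Cdh5 UMI, with Inmt at 4120 CPM.

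The label was checked against markers that the rule had not used. Inmt, which encodes an amine N-methyltransferase, stood at 3440 to 5104 CPM as the mean of 3 mice in WT normal, WT tumor-bearing and LAIR1KO tumor-bearing members and at 3367 CPM in LAIR1KO normal members. Pdgfra, the receptor for platelet-derived growth factor, stood at 651 to 821 CPM. Levels in other barcodes, here and below, are of barcodes with under 3 Col1a2 UMIs or set aside by the Cdh5, C1q or Lamp3 conditions. They leave out the remaining Col1a2 barcodes, those with no Npnt UMI or only 1. In these other barcodes the 2 genes stood at 243 to 1002 CPM and 49.1 to 238 CPM, highest in LAIR1KO normal lung for both. Limch1, Itga8, Tcf21 and Fgfr4 marked the members too. Limch1 reached 1342 to 1501 CPM as group means against 141 to 447 CPM in other barcodes. Itga8, the partner of Npnt, reached 496 to 622 CPM against 47.1 to 169 CPM. Tcf21, a transcription factor of lung mesenchyme, reached 201 to 332 CPM against 19.6 to 92.5 CPM.

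The nearest relatives were 159 barcodes with at least 3 Col1a2 UMIs and no Npnt UMI, 25, 53, 4 and 77 per library. Several adventitial fibroblast genes stood higher in them than in the members, and so did Hhip of myofibroblasts in WT lung (given below). Pi16, a marker of adventitial fibroblasts around vessels and airways, was at 454 to 1788 CPM in them, summed per library, and at 7.35 to 27.6 CPM in the members. Dcn, which encodes decorin, was at 4560 to 7392 CPM against 239 to 505 CPM. Clec3b was at 1309 to 2473 CPM against 435 to 550 CPM. Inmt was at 410 to 1065 CPM in the Npnt-zero barcodes. Since Npnt parted the classes, none of these differences was tested. Mfap5 did not follow the pattern in WT normal lung, where it stood at 583 CPM in members and at 533 CPM in the Npnt-zero barcodes. The members thus carried the markers of their label. Erythroid and melanoma genes summed to 0.03 or fewer UMIs per 10000 in the members, except erythroid genes at 0.26 in LAIR1KO normal members.

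**Figure D2:**
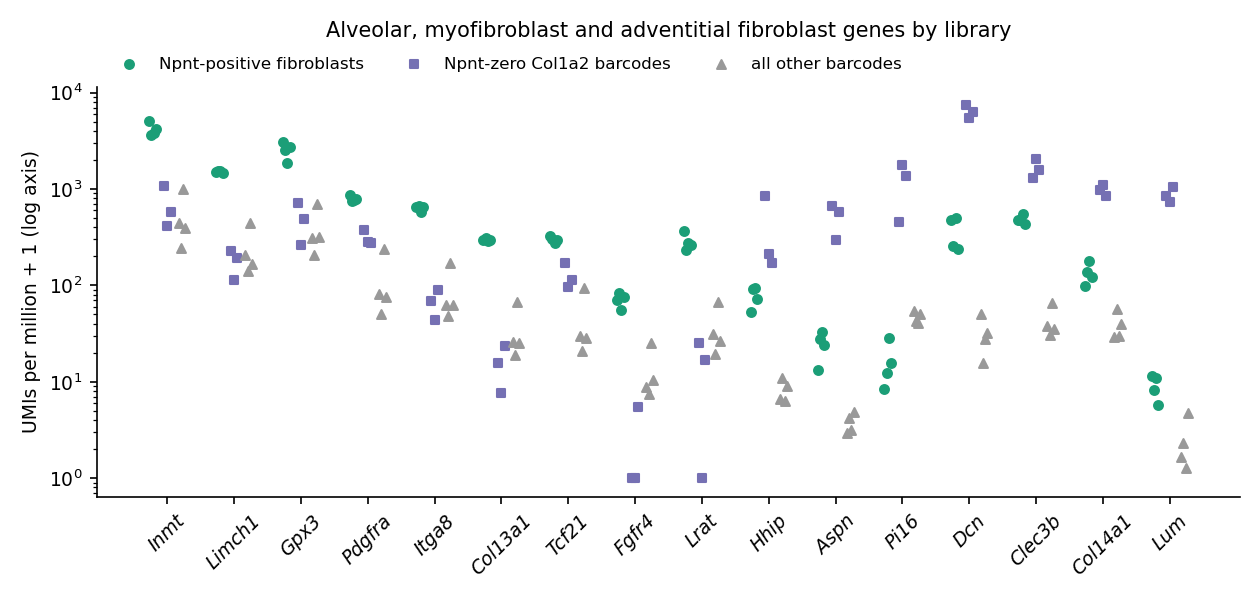
CPM on a log axis (y) of marker genes (x) in members, in Npnt-zero Col1a2 barcodes and in other barcodes. The other barcodes leave out every barcode that met the Col1a2 condition and the exclusions. Each point is the sum of 1 library, over members with or without a hashtag, and not a mouse. LAIR1KO normal is left out of the Npnt-zero points because it had 4 such barcodes. Inmt, Pdgfra and Limch1 sit higher in members, and Pi16, Dcn and Clec3b sit higher in the Npnt-zero barcodes.

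Transcripts of other cell types in the members were low in 3 libraries and higher in 1. Genes of alveolar type 1 cells (Ager, Hopx and 6 others) summed to 3.46 to 7.27 UMIs per 10000 in WT normal, WT tumor-bearing and LAIR1KO tumor-bearing mice. They summed to 5.38, 17.6 and 37.2 in the 3 LAIR1KO normal mice. The 10% of members highest for these genes held 71.7% of them there. The 11 endothelial genes other than Cdh5, which the rule sets to 0, summed to 2.48 to 3.45 per 10000 in LAIR1KO normal mice and to 0.65 to 1.47 in the others. Mesothelial genes reached 20.9 per 10000 in LAIR1KO normal mouse 1, which had 16 members. Members without a hashtag in LAIR1KO normal lung held 19.3 CPM of Ager, against 44.9, 537 and 1297 CPM in the hashtagged members of its 3 mice. Gene tests were therefore run also without the 338 barcodes that held at least 3 UMIs of 6 type 1 genes or of 11 endothelial genes. In the LAIR1KO normal mice this left 6, 40 and 27 hashtagged members, in place of 16, 60 and 41.

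**Figure D3:**
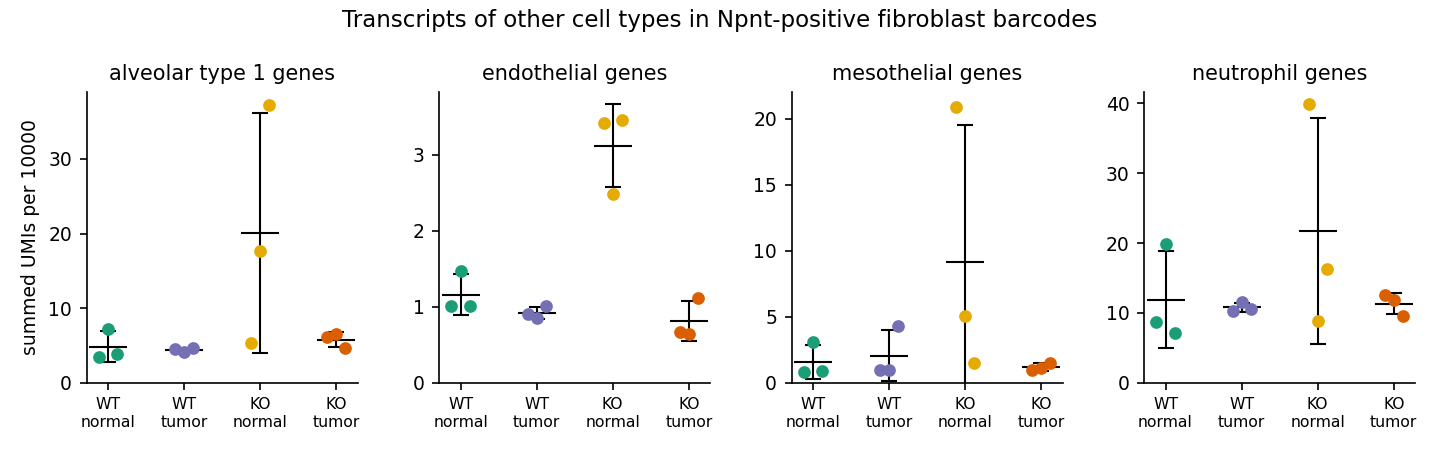
Summed UMIs per 10000 (y axis) of alveolar type 1, endothelial, mesothelial and neutrophil genes in the members of each mouse (points) by group (x axis). LAIR1KO normal mice reach 37.2 for alveolar type 1 genes, against at most 7.27 in the other groups.

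Matrix genes were expressed by the members of all 12 mice. Col1a1, the other chain of type I collagen, had group means of 1808 to 2232 CPM, and Col3a1 of 2542 to 2738 CPM. Eln, which encodes elastin, varied most between mice, from 1550 to 2353 CPM in WT mice without tumor and 2214 to 4043 with it, and from 1968 to 4508 CPM in LAIR1KO mice without tumor and 2660 to 4726 with it. The last group lay above all WT normal mice, but these 2 groups differ in genotype, tumor and sex and were not compared by a test. Eln passed the test in no contrast. Ltbp4, which binds latent TGF-beta to elastic fibres, had means of 1385 to 1577 CPM. In the members Npnt itself, a rule gene, stood at 1696 to 2052 CPM and Itgb1, the beta chain paired with Itga8, at 446 to 473 CPM.

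Factors that support epithelium were detected in the members. Fgf10 had group means of 91.5 to 127 CPM, against 7.27 to 19.2 CPM in other barcodes, and Fgf7 of 82.0 to 112 CPM against 6.87 to 21.1 CPM. Wnt2, Bmp5 and Hgf had means of 42.7 to 54.2, 182 to 211 and 117 to 158 CPM, against 3.46 to 18.4, 18.9 to 42.6 and 20.6 to 39.3 CPM in other barcodes. In the Npnt-zero fibroblasts Fgf10, Fgf7, Bmp5 and Hgf were below the members in every library. Wnt2, at 55.8 CPM in WT tumor-bearing lung, was not. LAIR1KO normal lung had only 4 Npnt-zero barcodes, too few to read such levels. Il33, also a signal of lung stroma, was at 3.86 to 4.47 CPM in 3 groups, and its 39.1 CPM mean in LAIR1KO normal lung came from 1 mouse at 112 CPM. Of retinoid genes, Aldh1a1, which makes retinoic acid, had means of 704 to 1122 CPM, and Lrat, which esterifies retinol for storage, of 238 to 373 CPM. Stra6, a retinol receptor, had no UMI in the members of 3 libraries.

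Among the genes ranked, those that varied most between members of 1 library were mainly stress and inflammatory genes. The ranking took genes with a mean of at least 0.5 UMIs in the thinned members of each library. Left out were genes of the lists of other cell types, gene models, Malat1, and ribosomal and mitochondrial genes, so their variation was not ranked. In 2716 members thinned to 3000 UMIs each, the Fano factor (variance over mean, 1 for pure counting) was highest for Mt1. It was 29.1 to 40.0 in the 4 libraries, against at most 1.32 for the median gene ranked. Mt1 and Mt2 encode metallothioneins, which bind zinc and copper. Next came Mgp, Ccl2, Thbs1, Cxcl1, Ccl7, Il6 and Hspa1b, the last at 13.6 to 14.5. Hspb1, a small heat shock protein that holds unfolded proteins and binds actin, was at 7.56 to 10.3, and Dcn at 6.90 to 8.54.

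Several pairs of the variable genes went together across members. Heat shock genes went together, with r of 0.77 to 0.79 for Hspa1a and Hspa1b over the 4 libraries, 0.55 to 0.62 for Hspa1b and the co-chaperone Dnajb1, and 0.40 to 0.48 for Hspb1 and Hspa1b. Immediate early genes went together, with r of 0.68 to 0.72 for Fos and Jun and 0.63 to 0.69 for Fos and Egr1. Metallothioneins and inflammatory genes also did, with r of 0.74 to 0.81 for Mt1 and Mt2, 0.52 to 0.65 for Mt1 and Thbs1, and 0.48 to 0.63 for Cxcl1 and Il6. Mt2 and Jun had a negative r of -0.47 to -0.37. Hspb1 had r of 0.24 to 0.31 with Fos and of -0.20 to -0.05 with Mt1. Has1, which makes hyaluronan, went with Il6 (0.31 to 0.42) more than with Mmp3 (0.12 to 0.20). These are correlations over cells of the same library at 1 depth, given as description.

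**Figure D4:**
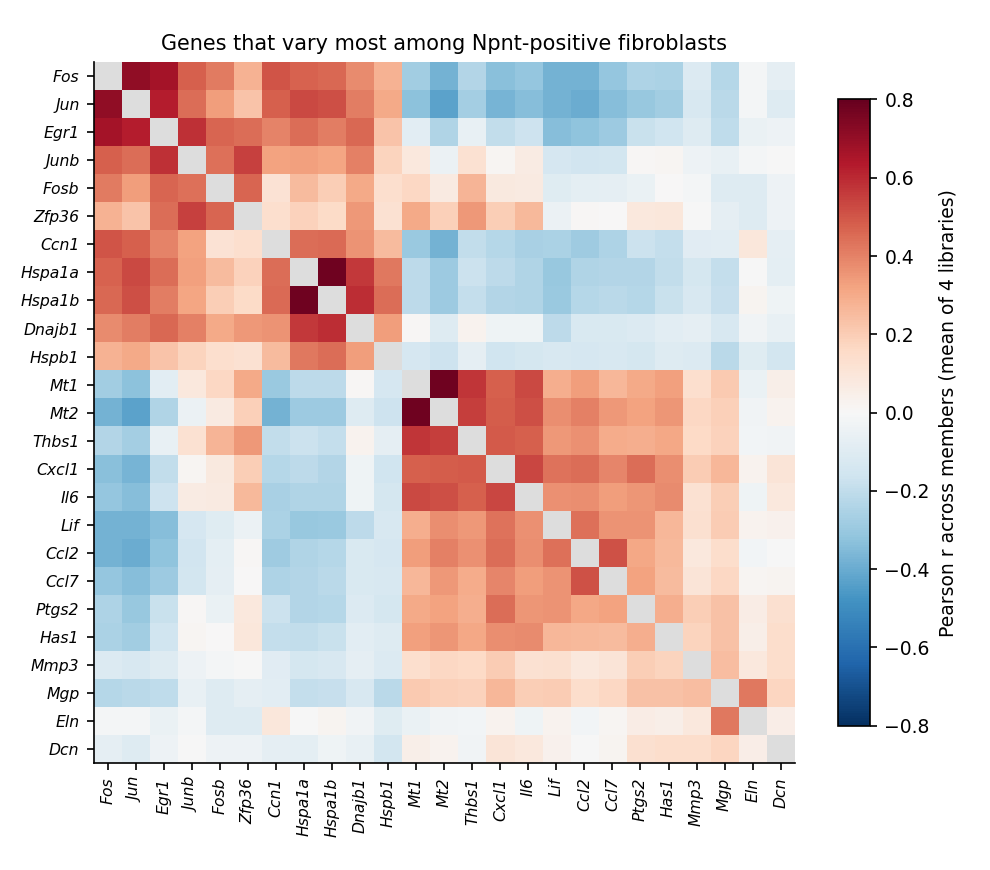
Pearson r between 25 variable genes across members thinned to 3000 UMIs, as the mean of the 4 libraries (colour), with genes on both axes. Blocks of positive r hold the heat shock, immediate early, and metallothionein with inflammatory genes, as for Mt1 and Mt2 at 0.78.

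The windows of 250 bases before the start sites of 5 of these genes are shown because they hold, or hold in part, the known elements of the heat and metal responses. They are from RefSeq on GRCm38.p6, given 5′ to 3′ on the gene's strand. Capitals mark matches of GAANNTTC or TTCNNGAA, the core of the heat shock element, in the first 3 and of TGCNCNC on either strand in the last 2. The latter is a looser form of TGCRCNC (R for A or G), the core of the metal response element.
Hspb1 (chr5:135887669-135887918, plus strand): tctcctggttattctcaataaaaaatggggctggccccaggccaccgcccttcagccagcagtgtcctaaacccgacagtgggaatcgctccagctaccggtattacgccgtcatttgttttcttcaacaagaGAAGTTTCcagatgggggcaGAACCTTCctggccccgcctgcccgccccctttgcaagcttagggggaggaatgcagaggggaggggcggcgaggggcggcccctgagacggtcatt
Hspa1a (chr17:34972157-34972406, minus strand): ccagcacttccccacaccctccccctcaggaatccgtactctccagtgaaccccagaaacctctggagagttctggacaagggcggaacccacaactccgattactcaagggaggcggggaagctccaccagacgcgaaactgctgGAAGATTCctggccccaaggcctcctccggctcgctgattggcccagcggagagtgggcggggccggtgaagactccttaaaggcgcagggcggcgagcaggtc
Hspa1b (chr17:34959239-34959488, minus strand): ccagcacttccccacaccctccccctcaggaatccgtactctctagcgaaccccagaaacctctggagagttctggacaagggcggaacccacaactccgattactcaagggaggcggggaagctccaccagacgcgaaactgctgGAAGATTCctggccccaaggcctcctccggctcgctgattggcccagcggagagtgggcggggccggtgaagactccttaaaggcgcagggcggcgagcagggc
Mt1 (chr8:94178839-94179088, plus strand): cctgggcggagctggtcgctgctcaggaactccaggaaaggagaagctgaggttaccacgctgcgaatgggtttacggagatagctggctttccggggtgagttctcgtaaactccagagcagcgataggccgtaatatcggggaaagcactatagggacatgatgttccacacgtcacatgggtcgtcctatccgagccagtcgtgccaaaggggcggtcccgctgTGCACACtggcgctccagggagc
Mt2 (chr8:94172368-94172617, plus strand): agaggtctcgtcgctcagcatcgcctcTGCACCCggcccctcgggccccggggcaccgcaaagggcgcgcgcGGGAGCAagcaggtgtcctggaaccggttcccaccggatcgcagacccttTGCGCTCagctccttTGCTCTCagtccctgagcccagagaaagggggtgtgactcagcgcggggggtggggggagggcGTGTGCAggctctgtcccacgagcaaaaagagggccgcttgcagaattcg

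Hspb1 held 2 heat shock matches, Hspa1a and Hspa1b 1 each, and 12.8% of 32851 RefSeq promoter windows of this length held at least 1. Hspa1a and Hspa1b were identical at 247 of 250 bases, and their transcripts are near copies, so their counts may share reads. Mt2 held 5 matches of the looser metal pattern and Mt1 held 1. In Mt2 the stretches GGGAGCA, read on the other strand, and TGCTCTC have T at the R base, so they are not matches of the core. At least 1 match of the looser pattern was found in 44.4% of windows and 5 or more in 0.344%. A match is a description of letters, not of binding.

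Gene changes were tested on UMIs summed per mouse with edgeR's quasi-likelihood test, all 4 groups in 1 fit, and called at a Benjamini-Hochberg adjusted p under 0.05 over 7881 genes. LAIR1KO against WT in normal lung called 97 genes (1.23%), 65 higher (0.825%) and 32 lower (0.406%) in LAIR1KO. LAIR1KO against WT in tumor-bearing lung called none (0%). Tumor-bearing against normal called 12 genes in WT (0.152%), 4 higher (0.0508%) and 8 lower (0.102%). In LAIR1KO it called 64 (0.812%), 19 higher (0.241%) and 45 lower (0.571%). The interaction, which asks whether the tumor difference itself differed by genotype, called 7 (0.0888%), 3 with a higher tumor difference in LAIR1KO (0.0381%) and 4 with a lower one (0.0508%). Single mice weighed on these counts. Genotype in normal lung had 15 calls without WT normal mouse 1, 26 without WT normal mouse 3 and 41 without LAIR1KO normal mouse 3. Tumor in LAIR1KO lung had 18 without LAIR1KO normal mouse 3 and 24 to 31 without any 1 of its tumor-bearing mice. The interaction had 3 to 25 calls with 1 mouse left out. Contrasts that share a group share its mice, the LAIR1KO normal mice for example, so their calls are not independent of each other.

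Hspb1, on chromosome 5 (mm10 chr5:135887919-135889563, plus strand), also differed between groups. It stood at 2460, 2845 and 2168 CPM in WT normal mice, 1776, 2058 and 1962 in WT tumor-bearing, 1301, 1603 and 1642 in LAIR1KO normal, and 2778, 2805 and 2832 in LAIR1KO tumor-bearing mice. The LAIR1KO normal mice were lowest and the WT groups did not overlap each other. The tumor-bearing mice lay below the normal ones in WT, where sex differed too, and above them in LAIR1KO. Of all genes, 15.5% in WT and 15% in LAIR1KO lung had no overlap with tumor. Hspb1 fell by 0.75 ± 0.12 (log2, SE) in LAIR1KO against WT normal lung (edgeR adjusted p = 0.00484). It rose by 0.95 ± 0.12 with tumor in LAIR1KO lung (edgeR adjusted p = 0.00252). The interaction was 1.35 ± 0.17 (adjusted p = 0.00147). All 3 calls were kept under every alternative tried, 17 for each contrast and 22 for the interaction (adjusted p at most 0.0332, 0.0210 and 0.0111). Among these, a minimum of 10 barcodes per mouse could not change a call, because every mouse held at least 16 members. Members that carried no hashtag by the main assignment, most of which the hashtag margin rule did assign, stood in the same order of groups at 3009, 2380, 1776 and 3144 CPM. The other barcodes of the libraries hold those set aside for Cdh5. In them Hspb1 stood at 1138, 807, 1744 and 1060 CPM, with LAIR1KO normal highest and not lowest.

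H3f3b encodes the replication-independent histone H3.3. It stood at 2412, 2245 and 2626 CPM in WT normal, 1695, 1768 and 1920 in WT tumor-bearing, 1492, 1400 and 1311 in LAIR1KO normal, and 1839, 1936 and 1880 in LAIR1KO tumor-bearing mice. WT normal mice were highest and LAIR1KO normal mice lowest, with no overlap to any other group for either. H3f3b fell by 0.84 ± 0.10 (log2, SE) in LAIR1KO against WT normal lung (edgeR adjusted p = 0.000347), and its interaction was 0.97 ± 0.14 (adjusted p = 0.00439). Both calls were kept under every one of the same alternatives (adjusted p at most 0.00616 and 0.0337). Other barcodes stood at 2405, 2056, 2048 and 2468 CPM.

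Gpx3, a secreted glutathione peroxidase, stood at 3025, 2775 and 2951 CPM in WT normal and at 1536, 1536 and 2190 in LAIR1KO normal mice. It fell by 0.78 ± 0.13 in LAIR1KO (edgeR adjusted p = 0.00484), and this call was lost only without WT normal mouse 1 (adjusted p = 0.052, and 4.16e-09 to 0.0524 over 17 alternatives). With tumor Gpx3 stood at 2514, 2302 and 2157 CPM in WT and 2411, 2640 and 2424 CPM in LAIR1KO mice. It rose by 0.57 ± 0.13 with tumor in LAIR1KO lung (adjusted p = 0.0428), a call that 8 of 17 alternatives lost, among them leaving out LAIR1KO normal mouse 1 or 2 or any 1 LAIR1KO tumor-bearing mouse (0.000105 to 0.205 over all 17).

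Members of the list of alveolar fibroblast genes were mostly lower in LAIR1KO normal lung. Of 25 tested, 22 were lower, 3 of them called (Inmt, Tcf21 and Ces1d) and none called higher, with a list median of -0.17. Over all 7881 genes tested, 3843 were lower, 0.406% were called lower and the median was 0.01. Inmt stood at 5285, 4813 and 5213 CPM in WT and at 2574, 3524 and 4005 CPM in LAIR1KO normal mice, and fell by 0.64 ± 0.13 (edgeR adjusted p = 0.0261). Ces1d, a carboxylesterase, fell by 0.91 ± 0.20 (adjusted p = 0.0387), from a mean of 361 ± 85.8 to 206 ± 42.9 CPM (SD, n = 3). Aldh1a1 fell by 0.63 ± 0.13 (adjusted p = 0.0317) and Apoe, the lipid carrier apolipoprotein E, by 0.78 ± 0.13 (adjusted p = 0.00565). Without the barcodes rich in type 1 or endothelial transcripts, the 5 log2 differences were -0.48 for Inmt, -0.41 for Tcf21, -1.17 for Ces1d, -0.50 for Aldh1a1 and -0.52 for Apoe, and none was called (adjusted p = 0.11, 0.60, 0.058, 0.38 and 0.19). With the same removal under the hashtag margin rule, which kept more members, Inmt (-0.43), Ces1d (-1.16) and Aldh1a1 (-0.74) were called (edgeR adjusted p = 0.0290, 0.0016 and 0.0056), and Tcf21 (-0.21) and Apoe (-0.48) were not. Over all 17 alternatives the highest adjusted p was 0.137 for Inmt, 0.629 for Tcf21, 0.181 for Ces1d, 0.383 for Aldh1a1 and 0.187 for Apoe. Leaving out WT normal mouse 1 also ended all 5 calls, and leaving out WT normal mouse 3 ended all but that of Apoe. In LAIR1KO normal members without a hashtag, Tcf21 stood at 338 CPM, against 318 in those of WT normal lung.

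Of 23 immediate early and heat shock genes, 22 were lower in LAIR1KO normal lung (list median -0.31), against 3843 of all 7881 genes, and 2 of them fell (0.406% of all genes did), Jun by 0.47 ± 0.11 (edgeR adjusted p = 0.0448) and Gadd45g by 1.05 ± 0.23 (adjusted p = 0.0340). Immediate early genes are known to respond to tissue dissociation. Jun stood at 2867, 2704, 2624 and 2262 CPM over all members and 2048, 1611, 2192 and 1430 CPM in other barcodes of the 4 libraries. Also lower were Slc3a2, a chain of amino acid transporters, by 0.63 ± 0.13 (adjusted p = 0.0209), and Cebpd, by 0.75 ± 0.17 (adjusted p = 0.0366). Without the other-cell barcodes the log2 differences were -0.38 for Jun, -0.71 for Gadd45g, -0.54 for Slc3a2 and -0.53 for Cebpd. None was called there, nor without WT normal mouse 1 or 3, with adjusted p of up to 0.388 for Jun, 0.356 for Gadd45g, 0.319 for Slc3a2 and 0.321 for Cebpd over the alternatives.

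Of the 16 collagen chain genes on the list that were tested between the normal lungs, 1 passed the test. Col4a4, a basement membrane collagen not on the list, was also called (66.9 against 6.09 CPM). It stood at 2.53 CPM in LAIR1KO tumor-bearing members. Lmo7, Adgrf5 and Ptprf, given below beside genes of other cell types, were likewise highest in LAIR1KO normal members. Whether the Col4a4 transcripts came from the fibroblasts was not tested. Col14a1, which encodes a fibril-associated collagen that bridges collagen fibrils, stood at 111, 117 and 116 CPM in WT and 264, 215 and 173 CPM in LAIR1KO normal mice. It rose by 0.85 ± 0.14 (edgeR adjusted p = 0.00588), and the call was lost only without WT normal mouse 1 (adjusted p = 0.062, and 0.000828 to 0.0616 over 17 alternatives). In tumor-bearing lung Col14a1 stood at 167, 159 and 145 CPM in WT and 124, 138 and 136 CPM in LAIR1KO, the reverse order. None of the 16 elastic fibre, 13 collagen-processing, 14 basement membrane and integrin or 16 growth factor receptor genes tested was called between the normal lungs.

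Ifi27l2a, an interferon-stimulated gene, rose by 1.28 ± 0.27 in LAIR1KO normal lung (edgeR adjusted p = 0.0303), the only called gene of 18 in its list, whose median was -0.11. The call was lost in 6 of 17 alternatives, among them the removal of other-cell barcodes, where the log2 difference was 1.36, and leaving out WT normal mouse 1 or 3 or LAIR1KO normal mouse 2. Of the 65 genes called higher, 6 were on the alveolar type 1 list, 2 on the endothelial list and 1 each on the mesothelial and the club and ciliated list. Other called genes with large differences were Adgrf5 (89.2 against 8.19 CPM as means of 3 mice), Lmo7 (95.8 against 6.86 CPM) and Ptprf (57.1 against 4.47 CPM). In LAIR1KO normal members without a hashtag the 3 stood at 5.31, 2.66 and 4.65 CPM, near the 5.63, 4.07 and 3.75 CPM of WT normal ones. Of the 7 type 1 genes tested, 6 were called higher, Vegfa among them with overlapping mice (150 to 188 against 185 to 621 CPM). Without the barcodes rich in such transcripts, 9 genes were called in place of 97. That removal also left only 6, 40 and 27 members in the LAIR1KO normal mice. The part of these smaller sums in the drop was not tested.

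**Figure D5:**
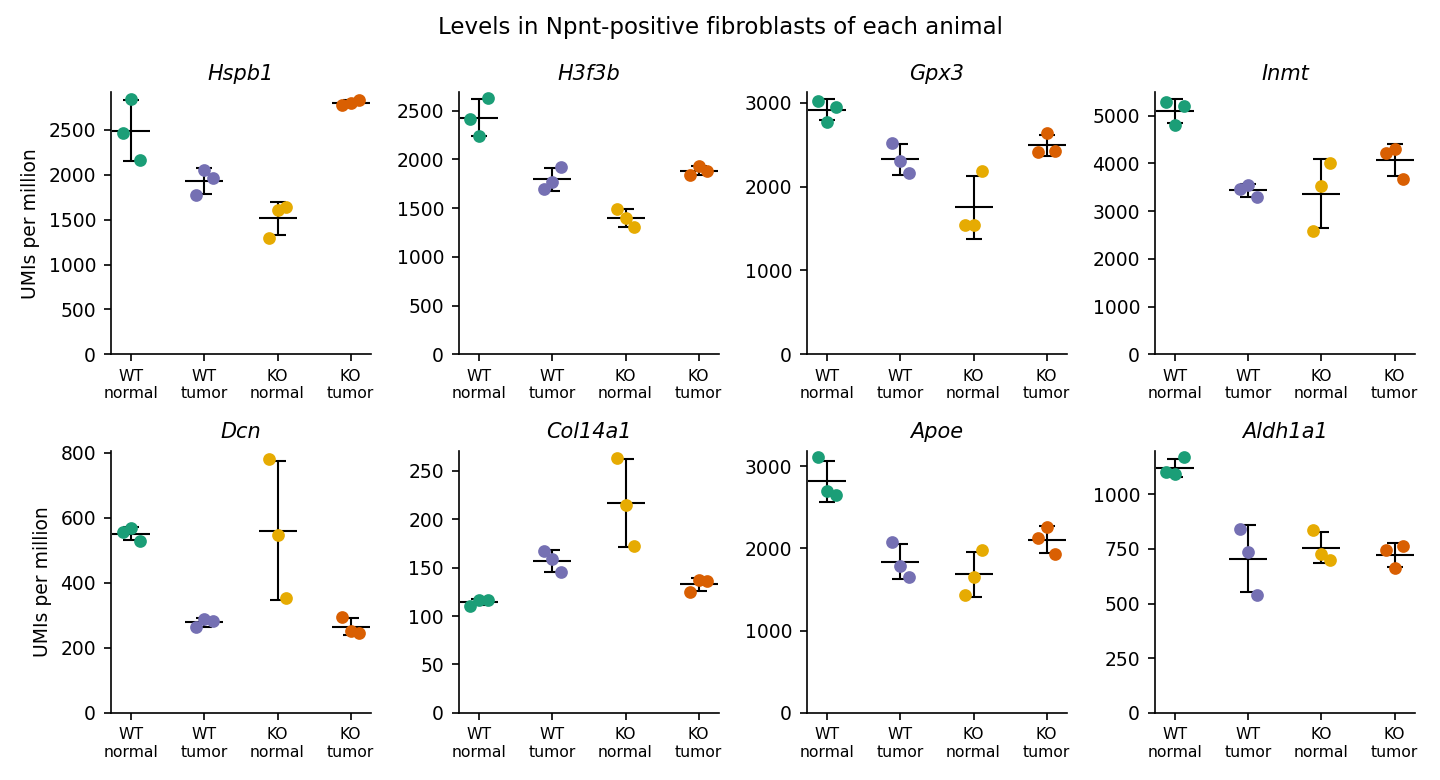
CPM (y axis) of 8 genes in the members of each mouse (points) with mean ± SD of 3 mice, by group (x axis). Hspb1 and H3f3b are lowest in LAIR1KO normal mice, and Dcn is lower in both tumor-bearing groups, at means of 278 and 264 CPM.

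In tumor-bearing lung, where all mice were female, no gene passed the test between genotypes with edgeR, 362 genes had an unadjusted p under 0.05, and DESeq2 called 1 gene, Hspb1. The genes with the smallest p that were higher in LAIR1KO were Syn3 (81.5 against 45.2 CPM, log2 difference 0.89 ± 0.16, edgeR adjusted p = 0.257), Hspb1 (2805 against 1932 CPM, 0.60 ± 0.12, adjusted p = 0.377) and Hif1a (262 against 172 CPM, 0.66 ± 0.14, adjusted p = 0.445). Next were Ftl1, the ferritin light chain, and Hspa9, a mitochondrial chaperone, both with adjusted p = 1. On the lower side were Tacc2 (17.2 against 44.4 CPM, -1.11 ± 0.23, adjusted p = 0.445), Saa3, Epn2, Zc3h6 and Pard3b, the last 4 with adjusted p = 1. Saa3, an acute phase protein, stood at 40.3, 282 and 118 CPM in WT and 4.44, 2.81 and 12.8 CPM in LAIR1KO mice, yet only 5.44% and 2.34% of the members in these libraries held a UMI of it. The fit called 58% of simulated 2-fold changes in this contrast, so smaller differences would often have been missed.

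With tumor in WT lung, Dcn fell. Its product decorin is a small proteoglycan that coats collagen fibrils, and it is abundant in adventitial fibroblasts. WT mice held 555, 568 and 528 CPM of it without tumor and 263, 290 and 281 CPM with tumor, without overlap, and fell by 1.02 ± 0.18 (log2, SE, edgeR adjusted p = 0.0226). LAIR1KO mice held 779, 546 and 353 CPM of Dcn without tumor and 295, 252 and 246 CPM with it, again without overlap, and fell by 0.98 ± 0.19 (adjusted p = 0.0211). Dcn is concentrated in some members: in WT lung 40.3% held a UMI of it without tumor and 29.5% with tumor, and in LAIR1KO lung 38.9% and 26.2%. At 3000 UMIs per barcode the shares were 26.7%, 19.3%, 28.3% and 19.0%. Members without a hashtag stood at 414, 212, 494 and 218 CPM. In other barcodes Dcn was at 14.8 to 49.5 CPM. Those leave out the Npnt-zero fibroblasts, where Dcn stood well above the members. The WT call was lost when any 1 of the 6 mice was left out (adjusted p = 0.0941 to 0.146). The LAIR1KO call was lost without any 1 tumor-bearing mouse (up to 0.0898). Without the other-cell barcodes the log2 differences were -0.96 in WT and -1.01 in LAIR1KO lung, not called (0.072 and 0.14), and with the margin rule added they were -0.86 and -1.11, both called (edgeR adjusted p = 0.00073 and 0.00025).

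Also lower with tumor in WT lung were Aldh1a1 by 0.72 ± 0.13 (edgeR adjusted p = 0.0303), the matrix protein gene Smoc2 by 1.31 ± 0.24 (adjusted p = 0.0303), the selenium carrier Selenop by 0.61 ± 0.12 (adjusted p = 0.0374) and Lnx2 by 1.12 ± 0.19 (adjusted p = 0.0210). Ifi27l2a rose by 1.44 ± 0.26 (adjusted p = 0.0303), from 333, 339 and 250 CPM to 979, 469 and 1105 CPM. In LAIR1KO lung Ifi27l2a stood at 768, 912 and 604 CPM without and 546, 522 and 833 CPM with tumor. Ifi27l2a in other barcodes was at 300 CPM in WT normal and 530 CPM in WT tumor-bearing lung. The 12 calls fell to 1 when genes on X and Y were left out of the fit, and to 5 to 8 when any 1 mouse was. Leaving out genes on X and Y also takes away any calls of such genes themselves in this contrast of male and female mice. Each of the 6 named calls was lost without genes on X and Y and also without WT normal mouse 1, with the direction kept. Of 20 amine and xenobiotic enzymes, 18 were tested and 15 were lower, against 3873 of all 7881 genes, with none called and a list median of -0.32. In the same contrast, 8 of 8 smooth muscle, 7 of 7 myofibroblast and 6 of 7 mesothelial genes tested were higher with tumor. None was called, and the list medians were 1.93, 0.82 and 1.27. Of all 7881 genes, 4008 were higher, with a median of 0.01. Smooth muscle genes summed to 9.596 to 10.1 UMIs per 10000 in WT normal and 11.1 to 15.9 in WT tumor-bearing mice, without overlap. Myofibroblast genes summed to 155 to 192 and 212 to 227 per 10000, also without overlap, and mesothelial genes to 0.85 to 3.10 and 0.94 to 4.30. Of single genes, 15.5% had no overlap of mice in this contrast. Myh11 of smooth muscle had no UMI in the hashtagged members of the 3 WT normal mice and 33 UMIs over all members of that library. Their part in the WT results was not tested.

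With tumor in LAIR1KO lung, the genes called higher included chaperones and stress regulators. Beside Hspb1, the mitochondrial chaperones Hspd1 and Hspe1 rose by 1.14 ± 0.23 and 0.95 ± 0.21 (edgeR adjusted p = 0.0215 and 0.0405). Hspd1 had 89.7, 107 and 128 CPM without tumor and 193, 230 and 272 CPM with tumor. Members without a hashtag gave the opposite order for Hspd1, with 273 CPM in LAIR1KO lung that had no tumor and 198 CPM in lung that did. Gadd45b, a stress-induced regulator, rose by 0.83 ± 0.16 (adjusted p = 0.0211), Hif1a, the oxygen-sensing transcription factor, by 0.76 ± 0.16 (adjusted p = 0.0275), and Fgl2 by 1.46 ± 0.27 (adjusted p = 0.0174). Hif1a had 146, 176 and 150 CPM without tumor and 310, 250 and 227 CPM with tumor. Members without a hashtag kept its order, at 147 and 264 CPM. Without the other-cell barcodes, Hspd1, Hspe1, Gadd45b, Hif1a and Fgl2 had log2 differences of 1.40, 1.33, 0.66, 0.64 and 1.57, none of them called. By the hashtag margin rule Hspd1 and Hspe1 stood at 0.21 and 0.27 and were not called, while Gadd45b, Hif1a and Fgl2 stood at 0.62, 0.82 and 1.18 and were. Each of the 5 lost its call also without LAIR1KO tumor-bearing mouse 2.

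Mfap4, a microfibril protein and a member of both the alveolar fibroblast and elastic fibre lists, rose by 0.50 ± 0.11 with tumor in LAIR1KO lung (edgeR adjusted p = 0.0405), from 1637, 1595 and 1748 CPM to 2149, 2303 and 2240 CPM. It was the 1 call among 25 and among 16 genes of these lists, and it was lost when any 1 of the 6 mice was left out (adjusted p up to 0.163). Of the 45 genes that fell, the strongest were those that stood higher in LAIR1KO normal lung, Lmo7, Adgrf5, Ptprf, Col4a4, Esam and Tspan8 among them. Without the barcodes rich in type 1 or endothelial transcripts, 2 genes were called in place of 64, and tumor-bearing LAIR1KO members held 4.66 to 6.51 type 1 UMIs per 10000. The fit without them rested on 6, 40 and 27 members in the LAIR1KO normal mice, and the part of these smaller sums was not tested.

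The interaction set the tumor difference of LAIR1KO lung against that of WT lung. Beside Hspb1 and H3f3b, Apoe was called with 1.04 ± 0.18 (log2, SE, edgeR adjusted p = 0.0437). It stood at 3106, 2700 and 2650 CPM in WT normal and 2074, 1787 and 1654 CPM in WT tumor-bearing mice, and at 1430, 1647 and 1976 CPM and 2128, 2264 and 1929 CPM in the LAIR1KO groups. WT mice were thus higher without tumor, while the LAIR1KO groups overlapped. Of 22 alternatives 10 lost the call of Apoe (adjusted p up to 0.197), among them leaving out WT normal mouse 1 or 3, WT tumor-bearing mouse 2 or 3 or LAIR1KO tumor-bearing mouse 1 or 2. Tacc2 (-1.81 ± 0.33, adjusted p = 0.0499) stood lowest in LAIR1KO tumor-bearing mice, at 19.3, 8.42 and 23.8 CPM against 56.1, 60.4 and 52.9 CPM in LAIR1KO normal ones, but members without a hashtag stood at 38.1 and 35.8 CPM, and 18 of 21 alternatives lost its call. Because WT normal was the only male group, sex enters the WT side of the interaction and its part was not tested.

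Whether a difference was larger in members than in Npnt-zero Col1a2 barcodes could be fitted, with the mouse as a block, for 2 contrasts. It rested on 2 WT normal, 1 WT tumor-bearing and 2 LAIR1KO tumor-bearing mice with 5 or more barcodes of both classes, and left 2 residual degrees of freedom. Genotype in tumor-bearing lung and tumor in WT lung each called 1 of 4899 genes (0.0204% each), in fits whose WT tumor-bearing arm was 1 mouse assumed to vary like the other groups, so nothing is read from these calls. By a hashtag rule that kept more barcodes, with 3 mice in each group, genotype called 0 of 7255 genes (0%) with edgeR, 264 at an unadjusted p under 0.05. Tumor in WT lung called 6 (0.0827%): Hhip and Aspn, both of myofibroblasts, had the higher tumor difference in members, and Cxcl2, Anxa3, Has2 and Gm12840 the lower. Hhip stood at 51.9 and 90.6 CPM in members of WT normal and WT tumor-bearing lung and at 855 and 210 CPM in the Npnt-zero barcodes.

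The heat shock genes did not all follow Hspb1 across the groups. In WT mice without and with tumor and then LAIR1KO mice without and with tumor, Hspa1a had means of 2461 ± 161, 2438 ± 907, 1974 ± 162 and 2348 ± 208 CPM and Hspa1b of 3386 ± 328, 3649 ± 1307, 2866 ± 249 and 3595 ± 95.1 CPM (SD, n = 3), and neither passed the test in any contrast. Members without a hashtag had Hspa1b highest in LAIR1KO normal lung, at 4893 CPM against 3186 to 3891 CPM. Mt1 stood at 11407, 10141 and 9108 CPM in WT normal, 7447, 5828 and 6445 in WT tumor-bearing, 4262, 10718 and 7283 in LAIR1KO normal, and 8279, 8498 and 7858 in LAIR1KO tumor-bearing mice. The WT groups did not overlap for Mt1, which 15.5% of all genes also showed in that contrast, and Mt1 was not called.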

How the data were processed

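The deposited counts are UMIs per gene and hashtag for each barcode of 4 droplet libraries (10x 3' chemistry, per the labels). The submitters' processing notes name Cell Ranger 4.0.0, STAR, R 4.0.0, Seurat 3.2.0 and the mm10 genome. UMIs of the rule's barcodes were summed per mouse, with mice assigned by Seurat 5.3.0 (HTODemux, quantile 0.99), and tested with edgeR 4.0.16 (TMM, filterByExpr, at least 5 barcodes per mouse, R 4.3.3). CPM values are UMIs of a gene over all UMIs of the sum. Barcode shares were compared by exact permutation tests. Mice are numbered within their library by hashtag. On simulated counts with 200 changed genes, edgeR called 52%, 58%, 63% and 46% of 2-fold changes and 82%, 94%, 94% and 85% of 4-fold changes in the 4 contrasts (genotype without and with tumor, then tumor in WT and LAIR1KO mice), with 6, 8, 13 and 7 unchanged genes called.

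Genes were named by a rule: in each contrast the 10 risen and 10 fallen with the smallest p among called genes that moved by 1.5-fold or more, reached a mean of 20 CPM in 1 group and had no overlap of mice (not asked of the interaction). Sex-linked genes, gene models, ribosomal, mitochondrial and immunoglobulin genes and genes of the other-cell lists were passed over. Up to 4 called members of each gene list were added, and with under 5 calls the 5 genes of smallest p per direction were named. The members and gene lists were chosen with earlier results of these data known. Alternatives were DESeq2 1.42.0, no filter on low counts, a hashtag rule by a 2-times margin, Npnt limits of 1 and 3 UMIs, removal of Scrublet doublets (scanpy 1.11.5, which marked 2.15% of barcodes), fits of 2 groups, no X and Y genes, and leaving out each mouse. A minimum of 10 barcodes per mouse was also set, but all mice passed it, so that fit equalled the main one. Shares were also thinned to 3000 UMIs. Removal of barcodes rich in other cells' transcripts and of the rule's exclusions was added after seeing the data. Gene positions come from the GENCODE annotation of mm10.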

Additional observations from a re-analysis of the deposited data

Results flagged for a closer look

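The tumor difference differed between LAIR1KO and WT lung by the interaction test of edgeR for 6 named genes. On the log2 scale, the difference in LAIR1KO minus that in WT was 1.35 for Hspb1, 0.97 for H3f3b, 1.04 for Apoe, -4.19 for Ptprf, -1.81 for Tacc2 and -3.71 for Adgrf5 (adjusted p = 0.00147, 0.00439, 0.0437, 0.0434, 0.0499 and 0.0499). Hspb1 was higher with tumor in 3 of 3 LAIR1KO mice and lower in 3 of 3 WT mice. Each was set against all mice of the matching normal lung. Of all genes, 15% in LAIR1KO and 15.5% in WT lung also had no overlap with tumor. The WT side set female against male mice, so tumor and sex cannot be told apart there. Ptprf and Adgrf5, genes of epithelium and endothelium, stood at 57.1 and 89.2 CPM in LAIR1KO normal members, at 4.74 and 9.57 CPM in LAIR1KO tumor-bearing members, and at 4.47 to 9.32 and 8.19 to 10.7 CPM in the WT groups. LAIR1KO normal members also held the most alveolar type 1 UMIs, 5.38 to 37.2 per 10000. Without the barcodes rich in such transcripts Adgrf5 was not called (-1.81) and Ptprf was not tested. Leaving out 1 mouse at a time ended the calls of Apoe, Ptprf, Tacc2 and Adgrf5 in some cases, and those of Hspb1 and H3f3b in none.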

How the results depend on the processing

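Counts of called genes moved with the settings, and the cause was not tested. In the order genotype in normal lung, genotype in tumor-bearing lung, tumor in WT lung, tumor in LAIR1KO lung and interaction, they were 97, 0, 12, 64 and 7 as reported and 520, 61, 139, 423 and 332 with no filter on low counts. DESeq2 called 1 gene for genotype in tumor-bearing lung, 20 for tumor in WT lung and 42 for the interaction. The margin rule for hashtags called 148 for genotype in normal lung, 36 and 134 for tumor in WT and LAIR1KO lung and 44 for the interaction. Fits of only the 2 groups called 54 for genotype in normal lung and 42 and 35 for tumor in WT and LAIR1KO lung. The interaction had 3 calls with Npnt of at least 3 UMIs and 2 without X and Y genes, where tumor in WT lung had 1 and genotype in normal lung 84. Without barcodes rich in other transcripts, 9 were called for genotype in normal lung, 2 for tumor in LAIR1KO lung and 4 for the interaction. With the margin rule added, these were 63, 29 and 41, and tumor in WT lung had 25. Leaving out 1 mouse gave 15 to 111 for genotype in normal lung, 0 for genotype in tumor-bearing lung, 5 to 8 and 18 to 80 for tumor in WT and LAIR1KO lung, and 3 to 25 for the interaction. For the difference between members and Npnt-zero barcodes, genotype in tumor-bearing lung had 3 calls with no filter, 0 with the margin rule, 10 without Scrublet doublets and 3 to 4 with 1 mouse left out. Tumor in WT lung had 11, 6, 14 and 2 to 4. Except under the margin rule, these fits had 1 mouse in at least 1 arm and 1 or 2 residual degrees of freedom, so their counts say nothing about stability. A minimum of 10 barcodes there, and contrasts with LAIR1KO normal lung, could not be fitted. Shares as percent of Col1a2-positive barcodes turned sign for genotype in normal lung (4.95 points), tumor in WT lung (2.40) and tumor in LAIR1KO lung (-7.73). Without the exclusions the first and last were 3.43 and -8.25, and genotype in tumor-bearing lung was 1.26 with the margin rule. Leaving out 1 mouse kept all 4 signs, at -13.9 to -9.69, -5.21 to -0.24, -4.15 to -0.11 and 4.58 to 9.55 points. Among named genes, 945 alternatives kept side and direction, 340 lost the call, 6 gained it and 3 turned: Tspan8 to -1.28 (genotype in normal lung) and 1.495 (tumor in LAIR1KO lung) with the margin rule and without rich barcodes, and Cd36 to 0.28 (tumor in LAIR1KO lung) without rich barcodes. The 945 include the minimum of 10 barcodes for the main sums, which repeats the main fit.

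No paired analysis was possible because hashtag numbers only name mice within a library. Precision was limited by 16 to 201 members per mouse and by the 51.1% to 62.8% of members per library without a hashtag. Of simulated 2-fold changes, 46% to 63% were called. The alternatives without rich barcodes or without the exclusions were chosen after seeing the data.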
